A study of Mus musculus with 36 samples.

Results

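The genes described here are 10 immediate early genes of the mouse brain: Fos, Fosb, Fosl2, Junb, Egr1, Egr2, Egr3, Arc, Npas4 and Nr4a1. They were found by the gene symbol that the array table gives, in any case of letters, and had 15 of the 45281 probes on the array, which carry 30854 symbols in all. Fosl2 had 3 probes, Junb, Egr3 and Npas4 had 2 each, and the other members had 1. Transcripts were measured on Illumina MouseWG-6 BeadChips in 3 brain regions, the hippocampus (HIP), the nucleus accumbens (NAc) and the medial prefrontal cortex (PFC), of adult male C57BL/6J mice. Each mouse received 10 daily intraperitoneal injections of vehicle or of 1 of 3 inhibitors of histone deacetylases (HDACs), and tissue was taken 1 h after the last. The vehicle was a mixture of saline, PEG-400 and DMSO given at 7.5 mL/kg. Cpd-60, a benzamide that inhibits HDAC1 and HDAC2, was given at 45 mg/kg in 7.5 mL/kg. SAHA, an inhibitor of several HDACs, was given at 25 mg/kg and CI-994, another benzamide, at 10 mg/kg, both in 5 mL/kg. The RNA on an array came from a pool of 2 mice. With 3 pools per treatment, 36 arrays cover 4 treatments and 3 regions. The p-values therefore measure the spread between pools. The vehicle mice were injected, killed by cervical dislocation and dissected as the treated mice were, so no group shows these genes without injection and handling. The vehicle volume matched that of Cpd-60 only, so for SAHA and CI-994 the drug and the injected volume cannot be told apart. The 3 regions of a pool come from the same mice, which makes it possible to ask whether a member varies with the animals across regions as well as with the drug.

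Immediate early genes are transcribed within minutes of a strong stimulus without the synthesis of new protein, and their messages decay quickly. Synaptic activity reaches them through calcium and kinase signals that act on transcription factors already bound at their promoters, among them CREB at cAMP response elements and the serum response factor at CArG boxes. In neurons they are widely used as marks of recent activity. Fos, Fosb and Fosl2 encode Fos family proteins that pair with Jun proteins, such as that encoded by Junb, to form the AP-1 transcription factor. Egr1, Egr2 and Egr3 encode zinc finger factors, Npas4 a factor induced by neuronal depolarization, Nr4a1 an orphan nuclear receptor, and Arc a protein carried to dendrites that acts in the removal of AMPA receptors.

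The promoters of 4 members are shown because a main question is whether these genes move together, and the windows carry letters read by the factors named above. In the RefSeq table of mouse promoters (GRCm38.p6) 7 of the 10 members matched, that is all but Arc, Egr1 and Egr3. The search left out the windows of 1 chromosome, so it does not show that a member without a match has no window. The windows hold the 250 bases before the start site, 5′ to 3′ on the strand of the gene. Capitals mark TGACG on either strand, the core of a cAMP response element, the CArG box and TATAAA, and no 2 of these matches overlap. Fos lies on the plus strand at chr12:85473640-85473889, Junb on the minus strand at chr8:84978749-84978998, Egr2 on the plus strand at chr10:67537619-67537868 and Npas4 on the minus strand at chr19:4989972-4990221. Egr2 had 5 windows in the table, and the one shown was chosen because it holds matches.
Fos: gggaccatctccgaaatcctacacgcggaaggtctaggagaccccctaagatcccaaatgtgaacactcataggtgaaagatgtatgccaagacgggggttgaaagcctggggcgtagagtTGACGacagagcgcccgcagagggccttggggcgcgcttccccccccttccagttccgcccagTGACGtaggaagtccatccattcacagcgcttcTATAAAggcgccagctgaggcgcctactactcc
Junb: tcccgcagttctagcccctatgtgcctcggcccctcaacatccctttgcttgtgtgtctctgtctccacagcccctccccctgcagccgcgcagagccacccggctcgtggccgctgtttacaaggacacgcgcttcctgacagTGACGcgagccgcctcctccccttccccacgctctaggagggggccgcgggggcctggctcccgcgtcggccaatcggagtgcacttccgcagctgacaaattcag
Egr2: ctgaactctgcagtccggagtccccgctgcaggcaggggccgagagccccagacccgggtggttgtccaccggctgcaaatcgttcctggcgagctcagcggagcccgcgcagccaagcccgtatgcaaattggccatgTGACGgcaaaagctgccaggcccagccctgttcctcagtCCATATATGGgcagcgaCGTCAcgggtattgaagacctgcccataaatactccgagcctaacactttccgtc
Npas4: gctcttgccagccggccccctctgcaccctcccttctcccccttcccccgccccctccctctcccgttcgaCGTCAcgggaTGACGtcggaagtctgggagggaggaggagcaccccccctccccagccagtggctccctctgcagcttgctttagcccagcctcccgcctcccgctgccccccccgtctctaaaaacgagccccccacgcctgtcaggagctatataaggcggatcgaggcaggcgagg
Fos held TGACG at 129 and 66 bases before its start and TATAAA at 33. Junb held 1 TGACG at 106 bases, Npas4 held 2, at 179 on the opposite strand and at 169, and Egr2 held 2, at 111 and, on the opposite strand, at 55, with a CArG box at 72. TGACG stood in the windows of 6 members, all of the 7 except Fosl2. Of 32851 windows of this length in the table, 17.8% held TGACG, 1.47% a CArG box and 12.4% TATAAA. These matches describe letters in a window and are not evidence of a bound factor.

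Median raw intensity was between 82.2 and 108.3 on the 36 arrays and the 95th percentile between 349.9 and 1079.7. A detection p of at most 0.01 was reached by 37.28% ± 2.75 (SD over the 36 arrays) of probes. The array of Cpd-60 replicate 1 in the NAc was the dimmest, at a 95th percentile of 349.9, followed by SAHA replicates 2 and 3 in the HIP at 437.7 and 452. Arrays of a region lay on 2 BeadChips of 6, with Vehicle and Cpd-60 replicates 1 and 2 and replicate 1 of SAHA and of CI-994 on the first. The labels of Cpd-60 replicate 2 disagree in every region on which mice it pools, and its number was taken from the sample title. The layout was the same in every region, so that the pool and its place on a BeadChip cannot be told apart, nor can the region and its BeadChips. Mean log2 intensity of 8 striatal markers (Drd1a, Drd2, Penk and others) was 10.22 to 10.89 in the NAc, 7.47 to 7.78 in the PFC and 7.16 to 7.36 in the HIP. That of 6 hippocampal markers (Prox1, Fibcd1, Spink8 and others) was 8.68 to 9.04 in the HIP, 6.85 to 7.01 in the PFC and 7.01 to 7.26 in the NAc. The arrays labelled NAc and HIP were thus the highest in the markers of their region.

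Values below are log2 intensities after quantile normalization of all 36 arrays, on which a probe at background reads 6.45 to 6.47. A member was tested in a region when its detection p was at most 0.2 on all 3 arrays of at least 1 treatment, and 9 of the 10 members were tested in all 3 regions. Fosl2, Junb, Egr1, Egr3 and Arc were detected at a p of at most 0.01 on 36 of 36 arrays. Fos reached that mark on 35 arrays, Fosb on 31, Egr2 on 30 and Npas4 on 28. For Npas4 only 5 of the 12 HIP arrays did so, and for Egr2 only 7, so their HIP values lie close to background. Nr4a1 did not reach a detection p of 0.01 on any array and reached 0.2 on 9 of 36. Its values, 6.36 to 6.73, were not distinguishable from background and were not tested. The second probes of Fosl2, Junb and Npas4 were near background too, being detected at 0.01 on between 0 and 2 arrays, and the second Egr3 probe on 16. The probe with the highest mean signal stands for each gene below.

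**Figure D1:**
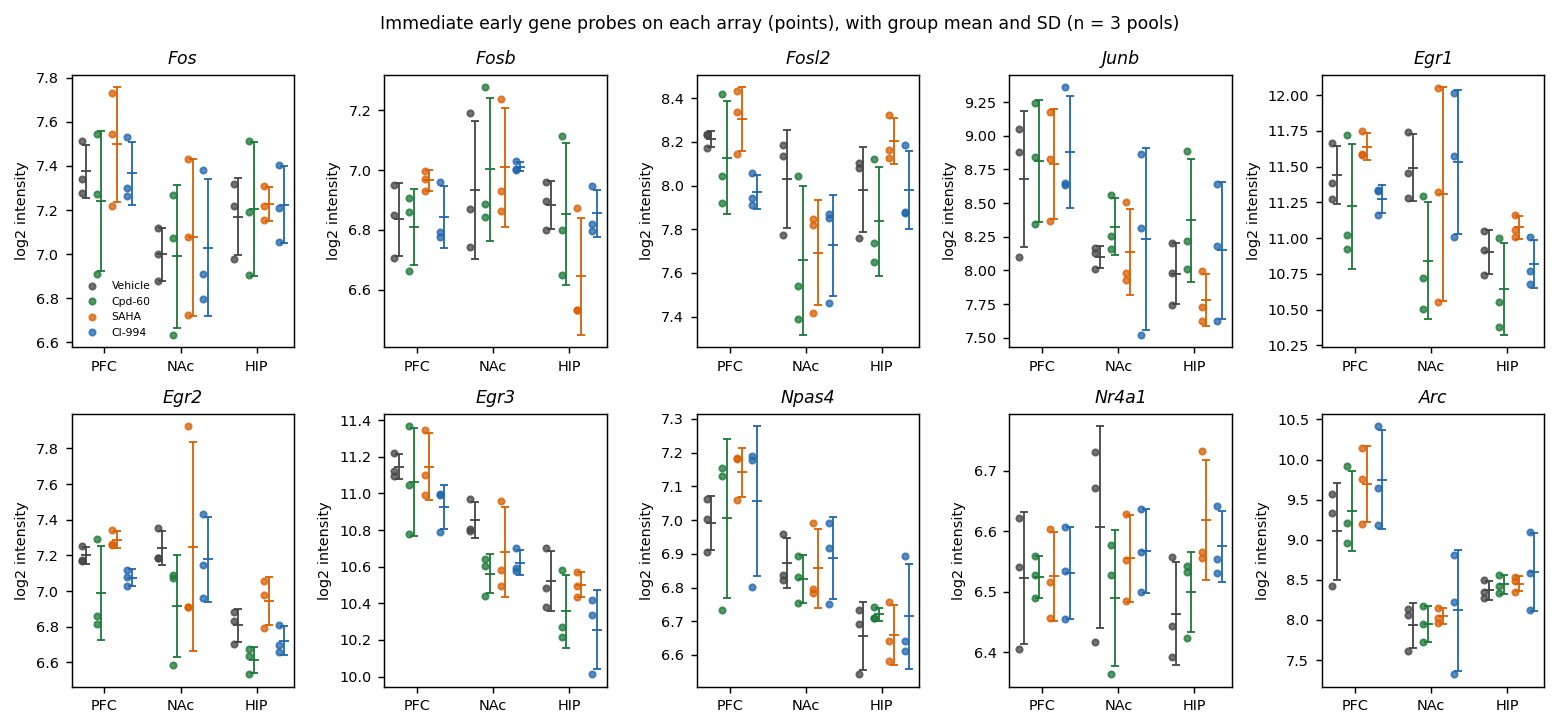
Log2 intensity (y axis) of each of the 10 members on the 36 arrays, by region (x axis) and treatment (colour). Points are pools and bars the mean ± SD of 3 pools, with a y axis of its own for each gene. Arc in the PFC ranges from 8.42 to 10.42 and Nr4a1 stays between 6.36 and 6.73.

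Pools of the same treatment differed widely for some members. Arc had the widest range of the 10, from 8.42 to 10.42 over the 12 PFC arrays, while the NAc arrays covered 7.32 to 8.81 and the HIP arrays 8.12 to 9.10. Among the vehicle pools alone Arc read 9.57, 9.33 and 8.42 in the PFC, so the third pool stood lower than the other vehicle pools by more than the vehicle mean differed from that of any drug. Junb, the AP-1 subunit, spanned 1.26 log2 units over the 12 PFC arrays, 1.34 over those of the NAc and 1.26 over those of the HIP. Egr1 spanned 1.55 units in the NAc and 0.83 and 0.79 in the PFC and HIP. Npas4 varied least of the 9 tested members in the NAc, over 0.24 units, although it lay near background.

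No member passed the test against vehicle for any drug. In limma's moderated model of the 12 arrays of a region, with Benjamini-Hochberg adjustment over all probes tested, 0 of 27 tests of members (9 genes in 3 regions) had an adjusted p under 0.05 for Cpd-60, 0 of 27 for SAHA and 0 of 27 for CI-994. The smallest adjusted p of a member was 0.935, 0.543 and 1.00 in turn. The share called over all probes was 0% in each of the 9 comparisons as well. At an unadjusted p under 0.05 there were 2 member tests for Cpd-60, against 5.19% (PFC), 4.77% (NAc) and 5.26% (HIP) of all probes. There were 0 for SAHA, against 2.25%, 2.05% and 9.37% of all probes in the same order, and 0 for CI-994, against 3.98%, 1.99% and 3.24%. By Tukey's test after a one-way analysis of variance, which the study's methods name, the count at an unadjusted p under 0.05 was 0 for each drug. Here that test covered 4 treatments with CI-994, where the study's analysis had 3 treatment groups, so these are not the counts of the study's own test. At the methods' threshold of an unadjusted p under 0.05 and a change of at least 1.2-fold, limma gave 1 member test, Egr3 in the NAc under Cpd-60. Single pools set these counts. That for Cpd-60 was 7 without Cpd-60 replicate 3, and 1 without Cpd-60 replicate 1, Vehicle replicate 2 or Vehicle replicate 3. That for SAHA was 2 without SAHA replicate 1, and 1 without SAHA replicate 2, Cpd-60 replicate 2 or 3 or Vehicle replicate 3. That for CI-994 was 5 without CI-994 replicate 3, 3 without Cpd-60 replicate 3, 2 without Vehicle replicate 1 or SAHA replicate 2, and 1 without CI-994 replicate 1 or 2, Cpd-60 replicate 1 or SAHA replicate 3. The count at an adjusted p was 0 for each drug with any 1 pool left out. With the BeadChip as a block they were 5 for Cpd-60, 0 for SAHA and 4 for CI-994. Same-numbered Cpd-60 and vehicle pools deviated together in the NAc (r 0.35 to 0.73 over the 3 pairs) and PFC (0.18 to 0.59), and with the pool number as a replicate block the Cpd-60 count was 3 in place of 1 in the NAc, for Fosl2, Egr1 and Egr3, and 0 in the PFC, with no adjusted p under 0.67.

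The 3 treated pools lay all above or all below the 3 vehicle pools for 0, 2 and 1 of the 9 members under Cpd-60 in the PFC, NAc and HIP. Over all probes that share was 9.68%, 9.38% and 12.2%. Under SAHA it was 1, 0 and 1 members against 8.68%, 7.11% and 19.3% of all probes, and under CI-994 3, 1 and 0 against 10.7%, 7.61% and 9.58%. The median 95% interval of a member reached 0.31 log2 units to either side of its difference. The 3 drugs were compared with the same vehicle pools and were given at different doses and not all in the same volume. Their values therefore stand side by side without a test between them.

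Fos, the most used mark of recent neuronal activity, differed little from vehicle. In the PFC it read 7.28, 7.51 and 7.34 in the vehicle pools, 6.91, 7.27 and 7.54 under Cpd-60, 7.22, 7.73 and 7.54 under SAHA and 7.27, 7.53 and 7.30 under CI-994. Cpd-60 replicate 1 was the lowest of these arrays and SAHA replicate 2 the highest, and every drug group overlapped the vehicle group. The differences of the means in the PFC were -0.13 for Cpd-60, 0.12 for SAHA and -0.01 for CI-994, each with an SE of 0.15. In the NAc, Fos read 7.12, 7.00 and 6.88 under vehicle, 6.63, 7.07 and 7.27 under Cpd-60, 6.72, 7.43 and 7.08 under SAHA and 6.91, 7.38 and 6.79 under CI-994. The SD within a drug group there was 0.31 to 0.36 against 0.12 under vehicle, with 3 pools in each, and that difference in spread was not tested. In the HIP the 3 differences were 0.03, 0.06 and 0.05, each with an SE of 0.14. The 95% intervals of the 9 Fos differences reached down to -0.48 and up to 0.55.

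Fosb, whose stable splice form accumulates with repeated stimulation in the striatum, was also close to vehicle in the PFC and NAc. Under SAHA in the HIP it read 6.87, 6.53 and 6.53 against 6.96, 6.90 and 6.80 under vehicle, a difference of -0.24 (SE 0.12, unadjusted p = 0.0667, adjusted p = 0.543 by limma). The low values are SAHA replicates 2 and 3, whose arrays were the dimmest of the HIP, and on which Fosb was not detected at a p of 0.01. Over the 12 HIP arrays Fosb followed the 95th percentile of raw intensity with a Pearson r of 0.71 (permutation p = 0.0105, adjusted p = 0.231 over 324 relations with markers and array measures; rho 0.53, p = 0.0792). The part of array brightness in this value was not tested.

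Fosl2, which encodes the Fos family protein Fra-2, read 8.06, 7.94 and 7.91 under CI-994 in the PFC, below all 3 vehicle pools at 8.24, 8.23 and 8.17. The difference was -0.24 (SE 0.11, unadjusted p = 0.0511, adjusted p = 1.00 by limma). In the NAc Fosl2 differed from vehicle by -0.37 under Cpd-60, -0.34 under SAHA and -0.30 under CI-994, each with an SE of 0.19. Replicate 3 of the 4 treatments in the NAc read 7.77 under vehicle, 7.39 under Cpd-60, 7.42 under SAHA and 7.46 under CI-994, in each case the lowest of its treatment. All of these lay on the second BeadChip. Replicate 2 of SAHA and of CI-994 lay on it too, with Fosl2 0.07 and 0.09 above the mean of the region. With the replicate number as a block the unadjusted p by limma was 0.00271 for Cpd-60, 0.00494 for SAHA and 0.00889 for CI-994. Pools of the same number are different mice. In the NAc, replicate 2 of SAHA and of CI-994 did not deviate with that of vehicle (r -0.17 and -0.45), so the block has less ground for these drugs. The adjusted p values were 0.67, 0.954 and 0.996. Under SAHA in the HIP the pools read 8.13, 8.16 and 8.32, above the vehicle pools at 8.08, 7.76 and 8.11, by 0.22 (SE 0.13).

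Junb was higher on average than vehicle in 8 of its 9 comparisons, but the treated pools overlapped the vehicle pools in each of them. Its largest difference was 0.39 (SE 0.25, unadjusted p = 0.143 by limma) under Cpd-60 in the HIP, where the pools read 8.22, 8.88 and 8.01 against 8.20, 7.98 and 7.75. The groups overlapped, and Cpd-60 replicate 2 alone stood well above the vehicle pools. Without it the difference was 0.14. Under SAHA in the HIP the difference was -0.20 with the same SE.

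Egr3, a zinc finger factor related to Egr1, gave the member test with the smallest unadjusted p. In the NAc it read 10.64, 10.44 and 10.60 under Cpd-60, below all of the vehicle pools at 10.80, 10.81 and 10.97. The difference was -0.30 (SE 0.11, 95% interval -0.55 to -0.05), or 1.23-fold lower, with an unadjusted p of 0.0249 and an adjusted p of 0.999 by limma. After background correction by limma's neqc it was -0.31, with an unadjusted p of 0.0631 by limma. CI-994 pools in the NAc, at 10.58, 10.70 and 10.59, also lay below all vehicle pools, by 0.23 on average (SE 0.11, unadjusted p = 0.0634). SAHA pools there read 10.58, 10.96 and 10.50 and overlapped the vehicle pools. In the PFC the Egr3 differences were -0.08 for Cpd-60, 0.00 for SAHA and -0.22 for CI-994 (SE 0.13), and in the HIP -0.17, -0.02 and -0.27 (SE 0.12). With the BeadChip as a block the CI-994 difference of Egr3 in the HIP was -0.36 (unadjusted p = 0.000357 in place of 0.0514, adjusted p = 0.939 by limma), and those in the PFC and NAc were -0.29 and -0.27 (unadjusted p = 0.0239 and 0.0273). Without CI-994 replicate 1 the HIP difference was -0.14. These drugs share their vehicle pools, so the low values are not independent of each other. The second Egr3 probe, detected on 16 of 36 arrays, differed by 0.03 in the NAc under Cpd-60 and by 0.13 in the HIP.

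Egr2 in the HIP was the other member at an unadjusted p under 0.05. It read 6.53, 6.67 and 6.64 under Cpd-60 and 6.70, 6.89 and 6.83 under vehicle, a difference of -0.19 (SE 0.08, unadjusted p = 0.0332, adjusted p = 0.935 by limma). The groups did not overlap. No Cpd-60 array of the HIP detected Egr2 at a p of 0.01 while all 3 vehicle arrays did, and after background correction by limma's neqc the difference was -0.59. Under SAHA, Egr2 in the HIP read 6.79, 6.98 and 7.06, which is 0.14 above the vehicle mean (SE 0.08). Under Cpd-60 the difference of Egr2 was -0.21 in the PFC (SE 0.10, unadjusted p = 0.0616 by limma) and -0.32 in the NAc (SE 0.25), where the 3 pools lay below all vehicle pools. With neqc the PFC difference was -0.52 (unadjusted p = 0.0358, adjusted p = 0.888 by limma). Single pools moved the PFC and NAc values. The PFC difference was -0.36 without Cpd-60 replicate 3 (unadjusted p = 0.000116, adjusted p = 0.0935 by limma) and -0.12 without Cpd-60 replicate 2, and the NAc difference -0.16 without Cpd-60 replicate 1. In the PFC the 3 SAHA pools lay above the vehicle pools by 0.09 on average and the 3 CI-994 pools below by 0.12, both with an SE of 0.10. Egr2 in the NAc reached 7.92 in SAHA replicate 2, the highest of the 36 arrays, where the other SAHA pools read 6.91.

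Egr1, the Egr member used as a mark of plasticity, had its largest difference in the NAc. There the Cpd-60 pools read 10.50, 10.72 and 11.30 and the vehicle pools 11.45, 11.28 and 11.75, so that replicate 3 of Cpd-60 overlapped the vehicle range. The difference was -0.65 (SE 0.37, 95% interval -1.46 to 0.16), and its unadjusted p by limma was 0.103, or 0.00684 with the BeadChip as a block (adjusted p = 0.457). Cpd-60 replicates 1 and 2 were also the lowest of the 12 PFC arrays, at 10.92 and 11.02, and of the 12 HIP arrays, at 10.55 and 10.38. Without Cpd-60 replicate 3 the Cpd-60 difference was -0.47 in the PFC and -0.44 in the HIP, with adjusted p values of 0.189 and 0.254. Leaving out Cpd-60 replicate 1 gave -0.07 in the PFC, and leaving out Cpd-60 replicate 2 gave -0.13 in the HIP. SAHA and CI-994 pools in the NAc covered 10.55 to 12.05 and 11.01 to 12.01.

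Npas4 differed from vehicle by between -0.05 and 0.15 in the 9 comparisons. Arc, the dendritic effector, had the largest positive differences of the members. In the PFC it read 9.65, 10.42 and 9.19 under CI-994, 9.19, 10.14 and 9.76 under SAHA, 8.96, 9.92 and 9.20 under Cpd-60 and 9.57, 9.33 and 8.42 under vehicle. CI-994 replicate 2 was the highest and vehicle replicate 3 the lowest of the 12 arrays, and all groups overlapped. The difference from vehicle was 0.64 for CI-994, 0.59 for SAHA and 0.26 for Cpd-60, each with an SE of 0.36, and none had an unadjusted p under 0.05 by limma. Without vehicle replicate 3 these Arc differences were 0.30, 0.25 and -0.09. In the NAc and HIP the CI-994 pools spread widely, at 8.81, 8.23 and 7.32 and at 8.59, 9.10 and 8.12. CI-994 replicate 3 was the lowest of the 12 arrays for Arc in both regions. Without it Arc under CI-994 stood above vehicle by 0.93 in PFC, 0.58 in NAc and 0.47 in HIP, with adjusted p values of 1.00 in each. Without CI-994 replicate 1 the Arc value in the NAc was -0.16, and without CI-994 replicate 2 that in the HIP was -0.02.

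**Figure D2:**
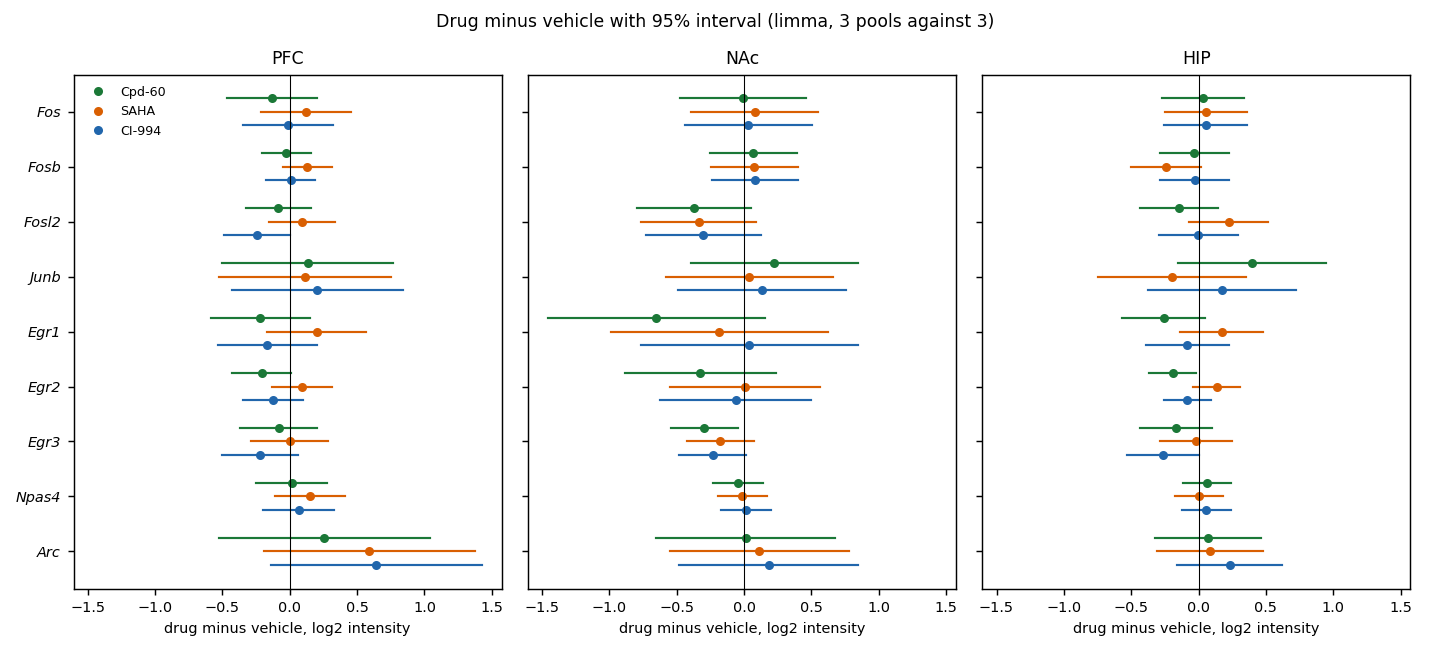
Difference between each drug and vehicle in log2 intensity (x axis) for the 9 tested members (rows) in each region (panels). Points are differences of the means of 3 pools and lines 95% intervals from limma. The intervals of Egr3 in the NAc and of Egr2 in the HIP under Cpd-60 end below 0, at -0.05 and -0.02.

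Whether a drug acted differently between regions was tested in 1 model of the 36 arrays with the pool as a random block. For each drug the difference from vehicle in the HIP was set against its mean in the PFC and NAc, and that in the NAc against that in the PFC. No member had an adjusted p under 0.05 by limma in these 6 comparisons, and the share called over all 19447 probes was 0% in each. At an unadjusted p under 0.05 there was 1 member test of 54, Fosb under SAHA in the HIP, with -0.34 (SE 0.15, unadjusted p = 0.0337, adjusted p = 0.683). Over all probes that share was 7.25% for this comparison and 1.69% for SAHA in the NAc against the PFC. It was 1.70% and 2.71% for Cpd-60 and 1.68% and 1.62% for CI-994 in the same order. The Fosb value rests on the dim HIP arrays of SAHA named above. The count of 1 was 0 without SAHA replicate 3 or Vehicle replicate 1 or 2, 2 without SAHA replicate 2 or Cpd-60 replicate 2 or 3, and 3 without Vehicle replicate 3.

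Some members were called between regions, at no higher a share than over all probes. Under vehicle, Egr3 was lower in the HIP than in the PFC by 0.62 on the log2 scale, with a difference of -0.62 (SE 0.13, adjusted p = 0.00107), or 1.54-fold. It read 10.38, 10.48 and 10.70 in the HIP, while the NAc pools read 10.80, 10.81 and 10.97 and the PFC pools 11.12, 11.09 and 11.22. The HIP and PFC groups did not overlap. Arc was lower in the NAc than in the PFC, at 8.14, 8.06 and 7.62 against 9.57, 9.33 and 8.42, with a difference of -1.17 (SE 0.33, adjusted p = 0.0113), or 2.25-fold. Npas4 was lower in the HIP than in the PFC, at 6.54, 6.69 and 6.73 against 7.06, 7.00 and 6.90, by -0.33 (SE 0.10, adjusted p = 0.0177). These were 1 of 9 members called between NAc and PFC and 2 of 9 between HIP and PFC, against 19.5% and 25.9% of all probes. Between HIP and NAc 0 of 9 were called by limma, with 4 at an unadjusted p under 0.05, against 16.7% of all probes called. The call for Egr3 held under each of the 11 settings run. Arc between NAc and PFC had an adjusted p of 0.104 without vehicle replicate 1 and 0.0933 without vehicle replicate 2, and Npas4 had 0.23 and 0.097, which leaves 1 call of 3 in each case. Npas4 also had 0.089 with quantile normalization within each region, and its difference ran from -0.97 to -0.24 over the settings, with 8 of 11 calling it. In bulk tissue a lower level in a region cannot be told apart from fewer cells that express the gene.

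Using the 12 pools of every region with treatment as a covariate, a comparison chosen after seeing the data, 6 of 9 members were lower in the NAc than in the PFC, 6 lower in the HIP than in the PFC, and 2 higher and 5 lower in the HIP than in the NAc. Over all probes the shares called in either direction were 51.6%, 57.0% and 42.6%. The share of members was above that of all probes in each comparison, and most so between HIP and NAc, with 7 of 9 called. Whether the members exceed the array was not tested. The median difference of the members was -0.35, -0.37 and -0.17, where that of all probes was -0.01, -0.03 and 0.00. Arc was lower in the NAc than in the PFC by -1.47 (SE 0.15) and lower in the HIP by -1.01, in 12 of 12 pools for both. Egr3 was lower by -0.39 in the NAc and by -0.66 in the HIP (SE 0.06), again in 12 of 12 pools. In the PFC it ranged from 10.78 to 11.37 and in the HIP from 10.01 to 10.70, without overlap. Junb was lower than in the PFC by -0.59 in the NAc and -0.72 in the HIP (SE 0.14), in 9 and 12 of 12 pools. Fos was lower in the NAc than in the PFC in 12 of 12 pools, by -0.35 (SE 0.09, adjusted p = 0.000895 by limma), and Fosl2 in 11 of 12, by -0.38 (SE 0.08).

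The order of the regions was not the same for all members. For Egr1 the PFC and NAc means, 11.39 and 11.29, did not differ beyond their spread, and the HIP mean of 10.86 was lower than both. Egr2 had the same order, at 7.14 and 7.15 in the PFC and NAc and 6.77 in the HIP. For Arc the order was PFC, HIP and NAc, with the HIP above the NAc by 0.45 (SE 0.15, adjusted p = 0.0151) in 11 of 12 pools. Fosl2 was likewise higher in the HIP than in the NAc, by 0.22 (SE 0.08, adjusted p = 0.0298), although the vehicle pools alone gave -0.05. Npas4 was lower in the NAc than in the PFC and lower again in the HIP, and each step passed the test (adjusted p = 0.00152 and 0.00408). Fosb was lower in the HIP than in the NAc by -0.18 (SE 0.06), and neither differed from the PFC by the test.

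**Figure D3:**
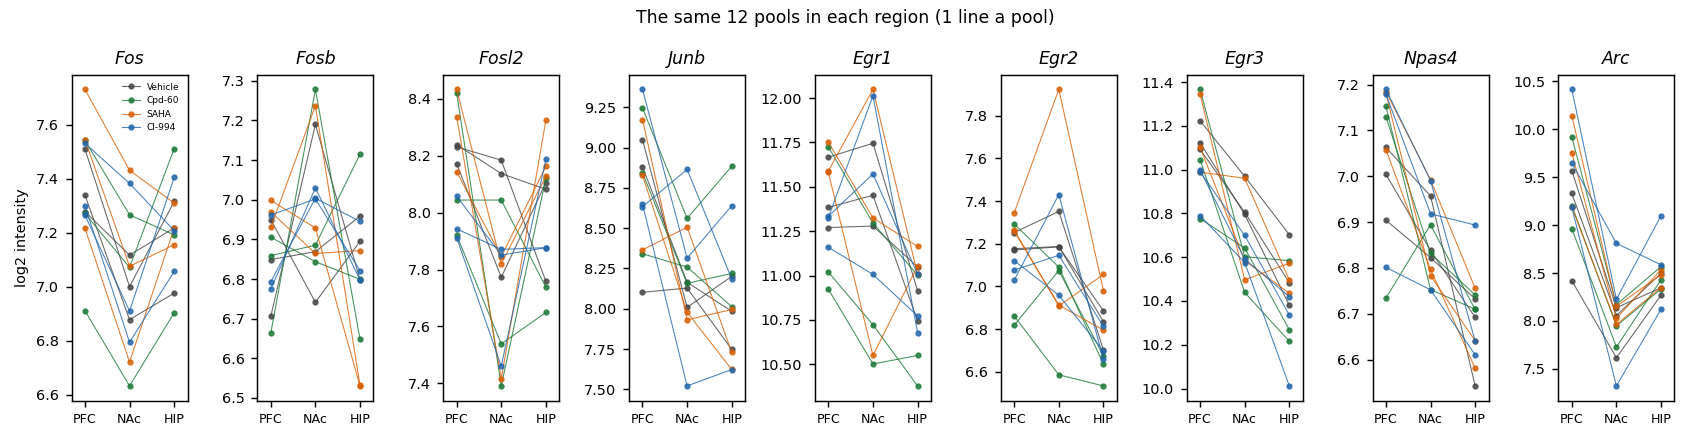
Log2 intensity (y axis) of the 9 tested members in the PFC, NAc and HIP (x axis), with 1 line for each of the 12 pools, coloured by treatment. The y axis differs between genes. Every Arc line falls from the PFC to the NAc, and the Egr3 values of the PFC lie above those of the HIP.

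The same pools could be followed across regions. Over the 12 pools the level of Fos in the PFC and in the NAc had a Pearson r of 0.84 (permutation p = 0.00043, adjusted p = 0.19) and a Spearman rho of 0.78 (permutation p = 0.004), and 0.489% of all probes had a higher r. Cpd-60 replicate 1 was lowest in both regions, at 6.91 and 6.63, and SAHA replicate 2 highest in both, at 7.73 and 7.43. The relation was 0.69 without the 2 pools farthest from the median, 0.71 and 0.90 within the BeadChips (exact p = 0.0903 and 0.0111, 6 pools each) and 0.88 after treatment means were taken out. Between PFC and HIP the Fos r was 0.36 over 12 pools (permutation p = 0.255). Within the BeadChips the Fos r was 0.71 and 0.94 (exact p = 0.121 and 0.0167, with 19.0% and 0.381% of all probes higher). Between NAc and HIP it was 0.44 (permutation p = 0.152), and 0.71 and 0.92 within BeadChips (exact p = 0.111 and 0.00694). Pools on the second BeadChip had higher Fos in the PFC than pools of the same HIP level on the first, as the scatter of Fos in PFC and HIP shows.

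Egr1 and Egr3 moved together between the PFC and HIP. Egr1 had an r of 0.79 (permutation p = 0.00207, adjusted p = 0.209; rho 0.65, p = 0.0259) and Egr3 an r of 0.79 (permutation p = 0.00215, adjusted p = 0.209; rho 0.71, p = 0.011). Without the 2 farthest pools these were 0.69 and 0.80, and within the BeadChips 0.79 and 0.64 for Egr1 and 0.75 and 0.73 for Egr3. Between PFC and NAc Egr1 had an r of 0.47, with 0.27 on the first BeadChip and -0.54 on the second, so the relation did not hold within BeadChips. Arc had an r of 0.74 between PFC and HIP (permutation p = 0.0066, rho 0.78, p = 0.00415), 0.60 between PFC and NAc (permutation p = 0.0402, rho 0.86, p = 0.00057) and 0.60 between NAc and HIP (permutation p = 0.0552, rho 0.85, p = 0.00074). Without the 2 farthest pools the Arc values were 0.57, 0.54 and 0.59, and within BeadChips they were between 0.56 and 0.79 (exact p = 0.0556 to 0.243). Between PFC and HIP 31.8% of all probes had a higher r than Arc on the first BeadChip and 5.14% on the second. Junb had an r of 0.67 (permutation p = 0.016) and Egr2 of 0.60 (permutation p = 0.0384) between PFC and HIP, with 0.56 and 0.39 without the 2 farthest pools, and Egr2 to 0.03 after treatment means were taken out. Fosb had an r of -0.61 between PFC and NAc (permutation p = 0.038), which was -0.17 without the 2 farthest pools. It was -0.79 and -0.65 within the BeadChips (exact p = 0.0667 and 0.131) and -0.81 after treatment means were taken out.

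In all, 27 such relations were computed, and 8 had a permutation p under 0.05. They were 3 of 9 between PFC and NAc, 5 of 9 between PFC and HIP and 0 of 9 between NAc and HIP, against 10.1%, 11.7% and 9.71% of all probes. Adjusted over all probes and the 3 pairs of regions, 0 members and 0 probes passed. The median r of the 9 members was 0.29, 0.60 and 0.38, where the median of all probes was 0.05, 0.18 and -0.06. Without Vehicle replicate 3 the count of 8 was 5. Npas4 and Fosl2 had no relation at a permutation p under 0.05. Pools of different treatments enter these values, and all 3 regions of a pool share the animals, the dissection and the BeadChip position.

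**Figure D4:**
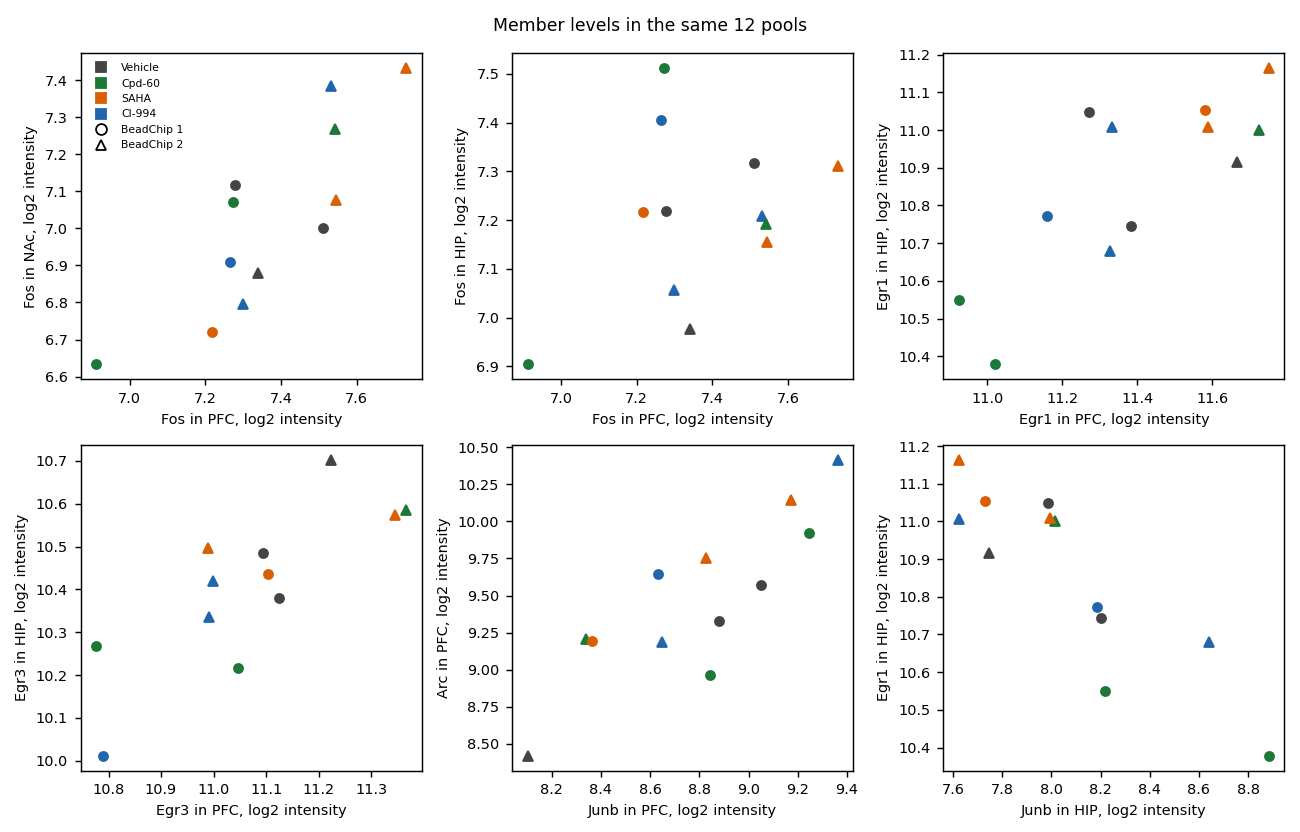
Log2 intensities of members in the same 12 pools, with each axis named in its panel, colour for the treatment and shape for the BeadChip. The panels show Fos in PFC against NAc (r 0.84) and HIP (r 0.36), Egr1 and Egr3 in PFC against HIP (r 0.79 for both), Junb against Arc in the PFC (r 0.85) and Junb against Egr1 in the HIP (r -0.87).

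Within a region some pairs of members varied together over the 12 arrays, and no grouping of the members was tested. With Fos, 5 of 24 relations had a permutation p under 0.05. In the PFC these were, with permutation p values, Egr1 (r 0.63, p = 0.0261), Egr2 (r 0.62, p = 0.0312) and Npas4 (r 0.66, p = 0.0184), and in the NAc Egr1 (r 0.69, p = 0.0143) and Egr2 (r 0.78, p = 0.00184). The Spearman rho was 0.66, 0.59 and 0.46 in the PFC and 0.62 and 0.64 in the NAc, with permutation p values of 0.0226, 0.0487, 0.137, 0.0343 and 0.0293. None was found in the HIP, where Fos had an r of -0.19 with Egr1 and 0.10 with Egr2. The share of all probes with such a p was 5.31% in PFC, 8.31% in NAc and 2.51% in HIP, and after adjustment 0 members and 0 probes passed. Without the 2 pools farthest from the Fos median the 3 PFC values were 0.39, 0.24 and 0.32 and the NAc values 0.46 and 0.55. All 5 were lower. Leaving out the extremes also narrows the range of Fos, and how much that changes r was not tested. Without SAHA replicate 3 the count of 5 was 3. Within BeadChips Fos and Egr2 in the NAc had 0.91 and 0.62, and Fos and Npas4 in the PFC 0.64 and 0.89. Fos and Egr1 had 0.44 and 0.29 in the PFC and 0.78 and 0.42 in the NAc, and Fos and Egr2 in the PFC 0.49 and 0.64.

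Each pair of Egr factors had an r above 0 in every region. Egr1 and Egr2 had an r of 0.85 in PFC, 0.82 in NAc and 0.74 in HIP (permutation p = 0.00036, 0.00048 and 0.00588; rho 0.85, 0.83 and 0.76 with p = 0.00062, 0.0015 and 0.00561). Adjusted over all probes set against Egr1, p was 0.0828, 0.028 and 0.0645. These values were 0.80, 0.74 and 0.72 without the 2 farthest pools and between 0.69 and 0.91 within the BeadChips. Egr1 and Egr3 had an r of 0.81, 0.63 and 0.65 (adjusted p = 0.113, 0.13 and 0.133). Over all probes the 95th percentile of r with Egr1 was 0.655 in PFC, 0.7398 in NAc and 0.7394 in HIP. Egr3 lay below it in the NAc and HIP, as did Egr2 in the HIP, at 0.7363. Egr1 was the member with the most partners over the array, as 0.0948% (PFC), 6.71% (NAc) and 7.15% (HIP) of probes passed with it at an adjusted p under 0.05. Against that background Egr2 passed in the NAc alone, and Junb in the HIP alone.

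Junb went against Egr1. The r was -0.87 in the HIP (permutation p = 0.00023, adjusted p = 0.0197; rho -0.87, p = 0.00046), -0.83 without the 2 farthest pools and -0.90 and -0.85 within the BeadChips. In the PFC and NAc it was -0.45 and -0.49, with permutation p values of 0.139 and 0.103, and on the second BeadChip of the NAc it was 0.10. The HIP pool highest in Junb, Cpd-60 replicate 2 at 8.88, was lowest in Egr1, at 10.38 (the pool whose labels disagree on its mice), and SAHA replicate 3, at 7.62 in Junb, was highest in Egr1, at 11.16. Over the HIP arrays, 6 astrocyte markers (Gfap, Aqp4, Gja1 and others), whose mean log2 intensity was 10.09 to 10.55, had an r of -0.79 with Egr1 and 0.75 with Junb (permutation p = 0.0026 and 0.00478, adjusted p = 0.221 for both over the same 324 relations). Their part in the relation of Junb and Egr1 was not tested.

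Junb varied instead with Arc. The r was 0.85 in PFC, 0.75 in NAc and 0.64 in HIP (permutation p = 0.00058, 0.00819 and 0.0266), with a rho of 0.74, 0.52 and 0.52 (p = 0.00797, 0.0886 and 0.0869). Only 0.0361%, 0.142% and 2.39% of probes had a higher r with Arc, yet the adjusted p was 0.657, 0.934 and 0.606, and 0% of probes passed with Arc in each region. Without the 2 farthest pools the values were 0.67, 0.10 and 0.42. In the NAc these pools were CI-994 replicates 1 and 3, the highest and lowest NAc arrays of both genes. Leaving out the extremes narrows the range here too, and how much that changes r was not tested. Arc and Npas4 had an r of 0.71, 0.66 and 0.70 (permutation p = 0.00901, 0.015 and 0.0186), or 0.72, 0.37 and 0.16 without the 2 farthest pools. In the PFC and HIP Arc was lower where the 8 striatal markers were higher, with an r of -0.75 and -0.78 (permutation p = 0.00468 and 0.00182, adjusted p = 0.221 for both). The striatal markers cover 7.47 to 7.78 in the PFC and 7.16 to 7.36 in the HIP, and their part in the Arc values was not tested.

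Of the 36 pairs of tested members, 14 had an r above 0 in all 3 regions, 8 below 0 in all 3 and 14 a mixed sign. These signs were not tested and were not set against pairs of other probes. The pairs above 0 include Fos with Arc, Fosb, Egr2 and Npas4, and Fosl2 with each Egr factor. The pairs below 0 include Junb with each Egr factor and Fosb with Egr2, Egr3 and Fosl2. The median r over the pairs was 0.34 in PFC, 0.27 in NAc and -0.14 in HIP. Members of the AP-1 family thus did not vary as 1 group, since Fosb and Fosl2 had an r of -0.06, -0.71 and -0.63 in the 3 regions. For Egr1 and Fosl2 in the NAc r was 0.79 and 0.96 within the BeadChips and 0.03 over the 12 arrays.

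**Figure D5:**
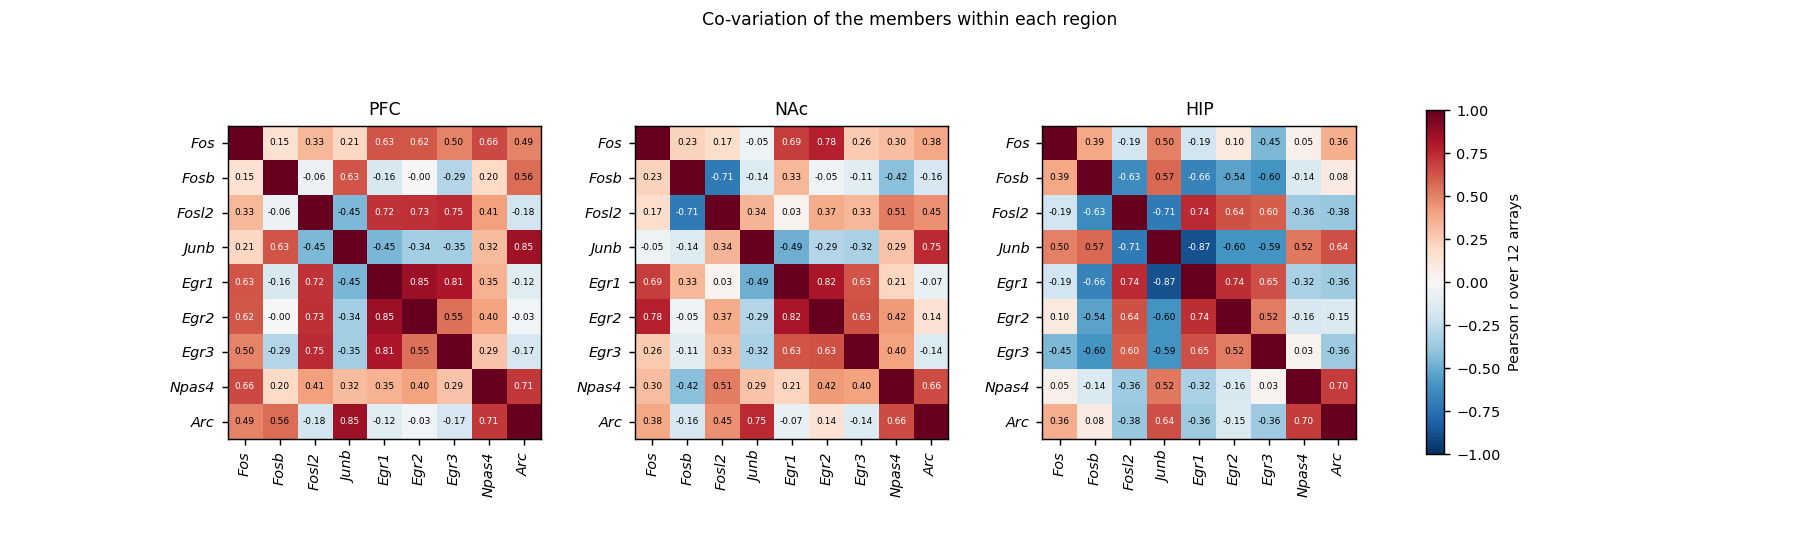
Pearson r between each pair of the 9 tested members (rows and columns) over the 12 arrays of the PFC, NAc and HIP, with red above 0 and blue below. The Egr factors and Fosl2 form a red block in the PFC and HIP, and Junb is blue against Egr1 in each region.

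Single pools stood out across regions. With each member taken as its difference from the mean of the 12 arrays of the region in units of its SD, Cpd-60 replicate 1 had the lowest mean over the 9 members in all 3 regions, at -1.24 in PFC, -1.05 in NAc and -0.59 in HIP. Its Fos was below the mean of the region by -0.46, -0.39 and -0.30 log2 units and its Egr1 by -0.47, -0.79 and -0.31, whereas its Junb was 0.05 and 0.15 above in the PFC and HIP and 0.04 below in the NAc. The NAc array of this pool was the dimmest of the 36. Its PFC array, with a 95th percentile of 518.9, was the dimmest of the 12 PFC arrays. Its HIP array, at 644.8, was not the dimmest of its region. The part of array brightness in this profile was not tested. SAHA replicate 2 had the highest mean in the PFC and NAc, at 0.84 and 1.09, and CI-994 replicate 2 the highest in the HIP, at 0.34. CI-994 replicate 3 was at -0.69 and -0.73 in the PFC and NAc, with 0 and 2 of 9 members above the mean. These profiles describe pools picked for their values, and no group of pools was tested.

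Other genes of the same pathways give the setting of the members. They were taken from 6 lists of other AP-1, Egr and Nr4a factors, fast regulators, feedback phosphatases and kinases, secreted and synaptic genes, and upstream regulators. Of these, 48 genes were tested in PFC, 49 in NAc and 49 in HIP, 44 of them in all 3 regions, and 0 passed against vehicle for any drug by limma. At an unadjusted p under 0.05 there were 10 of 48 in PFC, 5 of 49 in NAc and 7 of 49 in HIP for Cpd-60, 1, 1 and 10 for SAHA and 2, 2 and 2 for CI-994. Among all probes Cpd-60 gave 5.19%, 4.77% and 5.26%, beside 2.25%, 2.05% and 9.37% for SAHA and 3.98%, 1.99% and 3.24% for CI-994. The lists were chosen with earlier results of these data known, so these counts are no test of the lists. They include Sgk1, which the study had reported as raised by Cpd-60. Under Cpd-60 the serum and glucocorticoid kinase Sgk1 differed from vehicle by 0.60, 0.75 and 0.89 in the PFC, NAc and HIP (SE 0.18, 0.22 and 0.18, adjusted p = 0.788, 0.942 and 0.689). Dusp1, a phosphatase that switches off MAP kinases, differed by 0.52 in the PFC, and Zfp36, an RNA decay factor, by 0.32 in the PFC and 0.35 in the HIP. The neurotrophin Bdnf differed by -0.56 in the PFC under Cpd-60 (SE 0.08, unadjusted p = 1.6e-05, adjusted p = 0.355). In the HIP its differences were -0.25, -0.23 and -0.25 under Cpd-60, SAHA and CI-994, which share the vehicle pools. The median difference over the lists lay between -0.04 and 0.04 in each of the 9 comparisons.

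Between regions under vehicle, 5 of these 44 genes were higher and 8 lower in the NAc than in the PFC, 5 higher and 8 lower in the HIP than in the PFC, and 6 higher and 9 lower in the HIP than in the NAc by limma, against 19.5%, 25.9% and 16.7% of all probes called in either direction. Jun, the partner of Fos proteins, was higher in the HIP than in the PFC by 1.00 and than in the NAc by 1.22 (SE 0.12, adjusted p = 4.95e-07 and 6.49e-09), unlike the member Junb, whose differences were -0.70 and -0.12. Nr4a2, a relative of Nr4a1, was higher in the HIP by 0.80 and 1.08. Bdnf was lower in the NAc than in the PFC by -2.05 (SE 0.09), and Nrn1, a secreted neurite factor, by -3.39 (SE 0.17). Dusp6, a phosphatase of ERK, was lower than in the PFC by -1.04 in the NAc and -0.47 in the HIP. Mef2c, an activity-regulated transcription factor, was lower by -1.74 and -2.11. Scg2, a secretory granule protein, was higher in the NAc than in the PFC by 1.21 (SE 0.14).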

How the data were processed

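RNA of 36 pools was hybridized to 1-colour Illumina MouseWG-6 arrays. The authors deposited a table of raw, non-normalized intensity for each probe and array, with a detection p-value that the authors' scanner software gave beside each intensity. Their own analysis used GeneSpring 11.5.1, quantile normalization and Tukey's test after a one-way analysis of variance. Here intensities were floored at 1, quantile normalized over the 36 arrays and put on a log2 scale. Probes with a detection p of at most 0.2 on all 3 arrays of at least 1 treatment were tested with limma 3.58.1 (R 4.3.3), by lmFit and eBayes, with Benjamini-Hochberg adjustment over all tested probes of a comparison. Each drug was set against vehicle in a model of the 12 arrays of a region, and region contrasts came from 1 model of 36 arrays with the pool as a random block (consensus correlation -0.00497). Correlations used 100000 permutations of the pools, or all of them within a BeadChip (Python 3.11.15, numpy 2.4.6, scipy 1.17.1). Models were tested on simulated data.

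The members and lists were chosen with earlier results of these data known. Every member was described, and pathway genes were named from the lists. The alternatives were neqc normalization (offset 16), quantile normalization within a region, a detection p of 0.01 or no filter, 27 arrays without CI-994, the BeadChip or replicate number as a block, Tukey's test, and leaving out each pool. The number of arrays limits the precision. Promoters came from RefSeq (GRCm38.p6).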

Additional observations from a re-analysis of the deposited data

How the results depend on the processing

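No member passed at an adjusted p under 0.05 against vehicle, or between regions for a drug's difference, under any alternative run. Member tests at an unadjusted p under 0.05 were 2 for Cpd-60, and 5 with the BeadChip as a block, 6 with the replicate block and 0 with Tukey's test. For SAHA they were 0, and 1 with neqc, 1 without a detection filter and 4 with the replicate block. For CI-994 they were 0, and 2 without a detection filter, 4 with the BeadChip block and 4 with the replicate block. With neqc the Cpd-60 tests were Egr2 in the PFC and HIP, and Egr3 in the NAc was not among them. Leaving out 1 pool gave 1 to 7, 0 to 2 and 0 to 5 in turn, with 0 to 0 at an adjusted p. Calls between regions under vehicle were 3, and 5 with neqc, 5 in the 27 arrays without CI-994, 6 with the replicate block, 1 to 3 with a pool left out and 19 over the 12 pools of every region, which was chosen after seeing the data. Over those pools Fosl2 between HIP and NAc was 0.22 where vehicle pools alone gave -0.05. Tests of a drug between regions at an unadjusted p were 1, and 0 in the 27 arrays without CI-994 and 0 to 3 with a pool left out. Relations of a gene between regions were 8, and 1 and 3 within the first and second BeadChip, 3 without the 2 farthest pools and 5 to 9 with a pool left out. Relations with Fos were 5, and 2 on deviations from treatment means, 2 and 2 within the BeadChips, 1 without the 2 farthest pools and 3 to 6 with a pool left out. The cause of these changes was not tested, but a BeadChip holds 6 pools only. Of 54 same-number pairs of pools 32 correlated over 0.1 in their deviations (r -0.45 to 0.87). All 3 pairs of Cpd-60 and vehicle did so in the PFC and in the NAc, 2 of 3 in the HIP, and not all 3 for SAHA or CI-994 in any region. Replicates 1 and 2 of Cpd-60 and vehicle also share a BeadChip, with replicate 3 of both on the other. Low signal limits Egr2 and Npas4 in the HIP, Fosb on dim arrays, and Nr4a1 throughout.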

Other observations

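Over the 36 arrays, each taken as its difference from the mean of its region, the genes whose level followed the mean of the members most closely were Dusp14 (r 0.72), Dusp6 (0.60), Zfp36l1 (0.60), Map3k1 (0.60) and Krt10 (0.55). Dusp6 and Dusp14 encode dual-specificity phosphatases and Zfp36l1 an RNA decay factor. Over the 13990 symbols compared, r had a median of 0.00 and lay between -0.30 and 0.29 from the 5th to the 95th percentile. The arrays share pools, regions and BeadChips, so these values are a description with no test.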
